A study of Mus musculus with 4 samples.

Results

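Polycomb repressive complex 2 (PRC2) was examined through the genes of its subunits in wild-type (WT) mouse embryonic stem cells (mESCs) and in mESCs labelled *Spen* KO. The members were the 10 core and accessory genes *Ezh1*, *Ezh2*, *Eed*, *Suz12*, *Jarid2*, *Mtf2*, *Phf19*, *Aebp2*, *Rbbp4* and *Rbbp7*, taken by name from the 37310 genes of the count table, and all 10 were matched to an identifier. The cells are of the HATX line, haploid mESCs that carry a doxycycline-inducible *Xist* transgene, on a mixed genomic background and grown in serum and LIF on gelatin. The WT line was compared with clone 2 of cells that, per the study's methods, lack most of *Spen*, with 2 RNA-seq libraries a group and no treatment stated. Each group is 1 line, so *Spen* and any other difference between the clone and the WT line cannot be told apart, and the labels do not say whether the libraries of a group came from separate cultures. P-values therefore measure the spread between these libraries, which may be technical.

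PRC2 is the enzyme complex that places methyl groups on lysine 27 of histone H3, the mark H3K27me3, at silent developmental genes. A catalytic subunit, EZH2 or EZH1, works only together with EED and SUZ12, and RBBP4 or RBBP7 completes the core. Accessory subunits then divide the complex into alternative forms, PRC2.1 with a Polycomb-like protein such as MTF2 or PHF19, and PRC2.2 with JARID2 and AEBP2. In mESCs the complex sits at CpG-rich promoters of lineage regulators, and on the inactive X chromosome H3K27me3 follows *Xist* coating.

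Total counts were 36667685 to 43835004 in the WT libraries and 54715889 to 61908422 in the KO-labelled libraries. *Spen* itself had normalized counts of 3716 and 3047 in WT and of 7797 and 6242 in KO-labelled cells, so *Spen* RNA was higher where a deletion is labelled (log2 fold change 1.05 ± 0.21 SE). The study reported the same direction, with more *Spen* mRNA where the protein was lost. A count over the whole gene says nothing of the deleted part and does not check the label, and the group is called KO-labelled. Normalized counts are raw counts divided by the size factor of the library. All 8 mESC markers examined had at least 3500 normalized counts in every library, and 2 of them (*Zfp42* and *Dppa5a*) were higher and 0 lower by the test below. Summed over their exonic length, the primitive endoderm markers were at 129 to 136 normalized counts per kilobase in WT and at 56.7 to 67.4 in the KO-labelled libraries, and 2 of 6 were lower. The trophectoderm markers were at 529 to 560 and 285 to 286, 4 of 5 were lower, and *Elf5* was near 0 in both groups (5.3 and 4.4 in WT and 0 in KO-labelled cells). Fibroblast markers were at 74.6 to 88.0 and at 214 to 250, most of it *Thy1* (118 and 137 normalized counts in WT, 356 and 414 in KO-labelled cells), the 1 of 6 that was higher. *Col1a1* and *Col1a2* did not pass (log2 fold changes of 0.98 and -1.19), and *Postn*, *Dcn* and *Lum* had at most 8.7 in any library. The part of these levels in the results below was not tested, and in bulk RNA fewer cells of a type and less RNA per cell cannot be told apart.

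Differential expression was tested with DESeq2, and a gene passed at a Benjamini-Hochberg adjusted p under 0.05 over all genes tested. In KO-labelled cells 7 of the 10 members were higher and 2 were lower, and *Phf19* did not pass. These counts were 4 higher and 1 lower without WT replicate 2 and likewise without KO-labelled replicate 1, with 1 lower in each of the 4 fits that left out 1 library. With chromosome medians removed, 3 were higher and 0 lower. Among the 17710 genes with an adjusted p, 16.4% were higher and 15.8% lower. All members but *Phf19* average over 1000 normalized counts, and abundant genes pass more often: among the 6988 genes whose normalized counts averaged 1000 or more, a background chosen after the values were seen, 29.8% were higher and 19.2% lower. The median log2 fold change of the members was 0.24, beside 0.00 (0.0049) over all genes tested and 0.07 over those abundant genes. Regardless of direction, the median absolute log2 fold change was 0.22 over those abundant genes and 0.31 over all genes tested. *Ezh1* (0.25), *Eed* (0.23), *Aebp2* (0.23) and *Rbbp7* (-0.21) were near that 0.22 in size, and the other members were larger in size. No member (0 of 10) reached the study's threshold of a 2-fold change with an adjusted p under 0.001, which 1.36% of genes passed as higher and 3.15% as lower. edgeR's quasi-likelihood test gave 0 at that threshold as well (4.61% of the genes it tested), and 9 members had an unadjusted DESeq2 p under 0.05, as had 28% of all genes with a p. On normalized counts the ranges of the groups did not overlap for any of the 10 members, as for 70.2% of the genes tested.

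**Figure D1:**
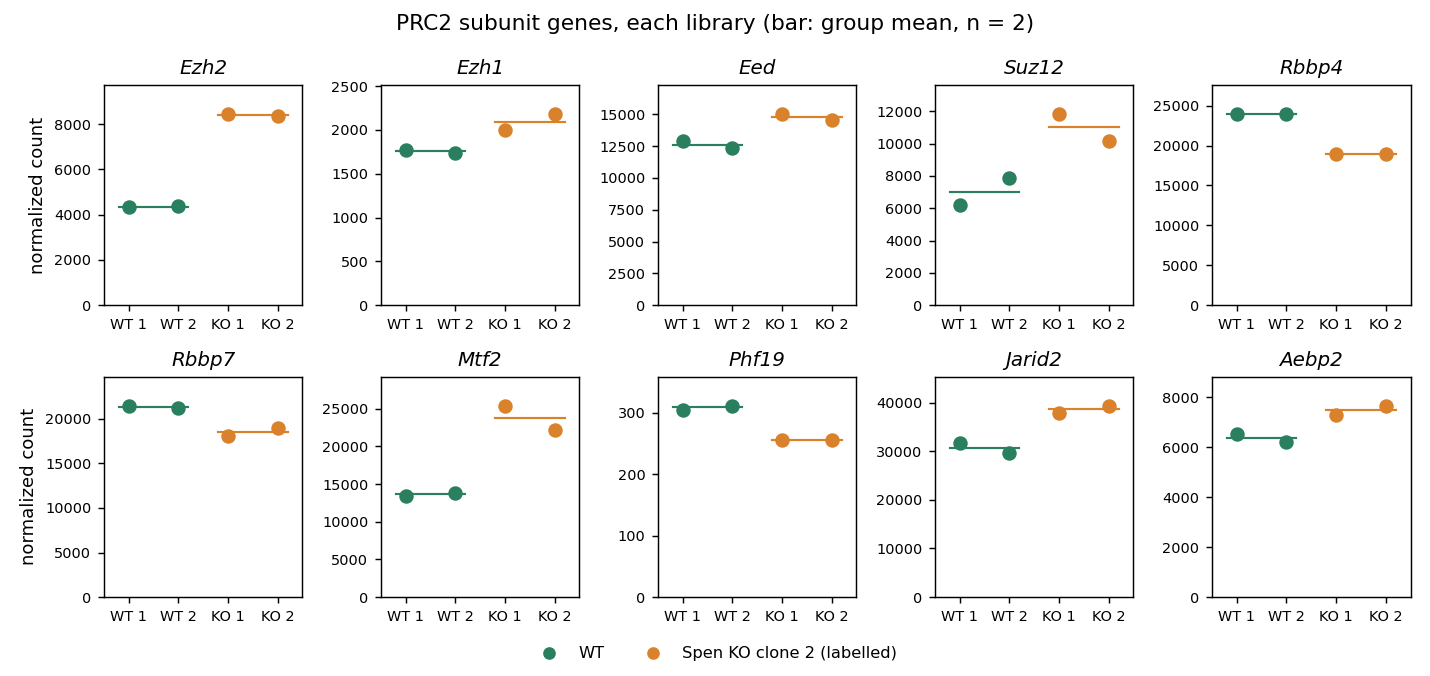
Normalized count (linear axis from 0) of each PRC2 subunit gene in each of the 4 libraries, with green points for WT, orange points for the KO-labelled libraries and bars for group means. *Ezh2* and *Mtf2* show the widest gap relative to the WT mean, at group means of 4357 and 8412 for *Ezh2*, and the libraries of the groups do not overlap in any panel.

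The promoters of 4 members are shown because these genes had the 3 largest rises and the largest fall among the members. The sequences are the 250 bases before the RefSeq start of transcription (build GRCm38.p6, whereas the counts and the gene positions below are on mm9). Capitals mark matches on either strand to any of 4 motifs. These include CCAAT (bound by NF-Y), GGGCGG (an SP box) and TTTNNCGC (a loose form of an E2F site, where N is any base). The other, TGGGAA, is the core of a site for RBPJ, the Notch effector to which Spen binds. Adjacent matches may overlap.

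*Ezh2*, chr6:47595031-47595280, minus strand: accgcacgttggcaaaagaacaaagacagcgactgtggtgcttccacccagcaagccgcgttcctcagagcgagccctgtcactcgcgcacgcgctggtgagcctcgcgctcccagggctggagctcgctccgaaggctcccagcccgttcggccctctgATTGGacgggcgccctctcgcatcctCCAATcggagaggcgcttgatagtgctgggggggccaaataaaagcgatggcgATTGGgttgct
*Mtf2*, chr5:108065424-108065673, plus strand: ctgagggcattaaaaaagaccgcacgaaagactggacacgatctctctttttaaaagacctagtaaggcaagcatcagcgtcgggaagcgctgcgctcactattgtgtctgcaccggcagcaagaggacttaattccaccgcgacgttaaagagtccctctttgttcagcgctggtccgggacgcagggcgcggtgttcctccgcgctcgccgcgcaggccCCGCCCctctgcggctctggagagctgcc
*Suz12*, chr11:79992856-79993105, plus strand: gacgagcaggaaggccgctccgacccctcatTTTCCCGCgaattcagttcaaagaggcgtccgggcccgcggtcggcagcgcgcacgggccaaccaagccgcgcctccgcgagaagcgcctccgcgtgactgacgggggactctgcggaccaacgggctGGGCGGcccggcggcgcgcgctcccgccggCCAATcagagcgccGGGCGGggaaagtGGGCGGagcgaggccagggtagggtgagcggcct
*Rbbp4*, chr4:129335371-129335620, minus strand: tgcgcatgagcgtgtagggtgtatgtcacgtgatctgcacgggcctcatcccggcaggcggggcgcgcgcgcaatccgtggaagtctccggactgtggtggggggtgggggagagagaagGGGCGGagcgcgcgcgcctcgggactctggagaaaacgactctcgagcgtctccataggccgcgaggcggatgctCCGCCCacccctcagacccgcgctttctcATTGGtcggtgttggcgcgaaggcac

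The *Ezh2* window holds 3 CCAAT matches, whose first bases lie at positions -90, -64 and -11 from the start. A CCAAT match was present in 33.8% of all 32851 RefSeq windows of this length. The *Mtf2* window shown, the first of 2 for that gene, holds 1 GGGCGG match at -29, a motif found in 32.7% of windows. The *Suz12* window holds 3 GGGCGG matches, 1 CCAAT match and an E2F match at -219, against 4.28% of windows with an E2F match. The other member with E2F matches was *Phf19*, which did not pass the test (2 matches, at -208 and -198). The *Rbbp4* window, of a gene that fell, also holds CCAAT (at -26) and GGGCGG (at -130 and -55). The RBPJ letters, in 21.6% of windows, were found before *Jarid2* and *Aebp2* and in none of the 4 windows shown. CG pairs numbered 23 before *Ezh2*, 23 before *Mtf2*, 37 before *Suz12* and 30 before *Rbbp4*, beside a median of 6 over all windows.

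Both catalytic subunits were higher, *Ezh2* at 1.93-fold and *Ezh1* at 1.19-fold. *Ezh2* (ENSMUSG00000029687.9) lies on chromosome 6 (47480273 to 47545340 in mm9, minus strand) and encodes the main H3K27 methyltransferase of dividing cells. It had 4326 and 4389 normalized counts in WT against 8464 and 8360 in KO-labelled cells. Both KO-labelled libraries thus stood at close to 2 times the WT level, and libraries of a group differed by far less than the groups. The log2 fold change was 0.95 ± 0.07 (SE), a 1.93-fold rise, with a DESeq2 adjusted p of 5.27e-37 and a 95% interval of 0.81 to 1.09 that spans the 2-fold mark. *Gm17629*, a lincRNA on the opposite strand that shares 2.81% of the exonic length of *Ezh2*, rose as well, from 29.2 and 35.9 to 112 and 111 (log2 fold change 1.77, DESeq2 adjusted p = 0.000179). Whether counting used the strand is not stated, so reads of the shared bases cannot be told apart. The counts of *Gm17629* are few beside those of *Ezh2*.

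*Ezh1* (ENSMUSG00000006920.8, chromosome 11, 101052429 to 101087777, minus strand) encodes the less active paralogue, best known from non-dividing cells. Its normalized counts were 1770 and 1740 in WT against 1995 and 2186 in KO-labelled cells. The groups did not overlap, and the log2 fold change was 0.25 ± 0.10 (SE, DESeq2 adjusted p = 0.0382). This call was lost in each of the 4 fits that left out 1 library (adjusted p of 0.0908 to 0.408) and after the median of each chromosome was removed (log2 fold change 0.09, adjusted p = 0.592). Per kilobase of exon, *Ezh2* RNA was at 2.93 and 3.03 times the level of *Ezh1* RNA in WT and at 5.09 and 4.59 times in KO-labelled cells. The ratio was higher in both KO-labelled libraries, by 0.70 on the log2 scale against a within-group SD of 0.08. With 2 libraries a group an exact two-sided permutation test cannot go below p = 0.333, the value it gave for this ratio and for the other ratios below.

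The core subunits *Suz12* and *Eed* also rose. *Suz12* (ENSMUSG00000017548.9, chromosome 11, 79806608 to 79847625, plus strand) encodes the subunit on which the complex is assembled. Its normalized counts were 6201 and 7844 in WT against 11850 and 10157 in KO-labelled cells. Libraries of a group lay far apart here, with an SD of 1162 around a WT mean of 7022, but the groups did not overlap. The log2 fold change was 0.65 ± 0.20 (SE, DESeq2 adjusted p = 0.00589), and without KO-labelled replicate 1 it was 0.54 with an adjusted p of 0.168. Near-identical copies elsewhere in the genome (at least 95% identity over at least 75 bases) covered 15.4% of its exonic bases, on the chromosomes X and 13, so part of its count is uncertain. The antisense lincRNA *Gm16706*, which shares 3.60% of the exonic length of *Suz12*, had a similar log2 fold change of 0.65 at 162 to 284 normalized counts.

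*Eed* (ENSMUSG00000030619.8, chromosome 7, 97103166 to 97129493, minus strand) encodes the subunit that binds H3K27me3 and stimulates the enzyme. It had 12924 and 12324 normalized counts in WT against 15050 and 14555 in KO-labelled cells. The rise was small and the groups did not overlap, at a log2 fold change of 0.23 ± 0.07 (SE, DESeq2 adjusted p = 0.00351). It was no longer past the threshold without WT replicate 2 (0.115) or without KO-labelled replicate 1 (0.101), nor with chromosome medians removed (log2 fold change 0.14, adjusted p = 0.132).

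The histone-binding subunits were lower on the scale of normalized counts. *Rbbp4* (ENSMUSG00000057236.9, chromosome 4, 128984344 to 129012614, minus strand) and *Rbbp7* (ENSMUSG00000031353.7, chromosome X, 159198334 to 159217024, plus strand) encode closely related WD40 proteins that also serve in NuRD, Sin3 and chromatin assembly complexes, so their RNA levels are not particular to PRC2. *Rbbp4* had 23992 and 23998 normalized counts in WT against 18927 and 18990 in KO-labelled cells. The libraries of each group were nearly equal, and the log2 fold change was -0.34 ± 0.06 (SE, DESeq2 adjusted p = 7.31e-07). Genes of chromosome 4 as a whole had a median log2 fold change of -0.21, and after removal of that median *Rbbp4* was at -0.13 with an adjusted p of 0.101. Copies covered 7.85% of its exonic bases, and *Sync* and *Gm17525*, which overlap it on the opposite strand, had at most 63.6 normalized counts.

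*Rbbp7* had 21502 and 21270 normalized counts in WT against 18121 and 18935 in KO-labelled cells. Both KO-labelled libraries were lower, at a log2 fold change of -0.21 ± 0.06 (SE, DESeq2 adjusted p = 0.00642), and each of the 4 fits that left out 1 library lost the call (0.0564 to 0.183), as did removal of chromosome medians (0.0681). Near-identical copies covered 46.9% of its exonic bases, on chromosomes X and 5, which leaves the count uncertain. *Txlng*, which shares 5.98% of its exonic length on the opposite strand, had a log2 fold change of 0.30, so the overlapping genes differed in direction. On the TPM scale *Rbbp7* was instead higher, at 252 and 249 in WT against 264 and 262 in KO-labelled cells, and *Rbbp4* was lower by less, at a log2 difference of -0.06. TPM moved the median gene by 0.28 on the log2 scale, and relative to that both were lower. Genes of under 400 exonic bases took 41.7% and 43.6% of TPM in WT against 31.6% and 33.8% in KO-labelled cells. With these left out of the total, a scaling chosen after the values were seen, the median moved by 0.05, *Rbbp7* was at -0.16 and *Rbbp4* at -0.30. The ratio of *Rbbp4* to *Rbbp7* per kilobase was 0.371 and 0.375 in WT and 0.348 and 0.334 in KO-labelled cells. The difference was -0.13 on the log2 scale against a within-group SD of 0.03.

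Among the PRC2.1 subunits, *Mtf2* rose and *Phf19* did not pass the test. *Mtf2* (ENSMUSG00000029267.10, chromosome 5, 108494693 to 108538023, plus strand) encodes the Polycomb-like protein that brings PRC2 to CpG islands in mESCs. Its normalized counts were 13461 and 13877 in WT against 25428 and 22177 in KO-labelled cells. The lower KO-labelled library was still well above both WT libraries, and the log2 fold change was 0.80 ± 0.08 (SE), a 1.74-fold rise with a DESeq2 adjusted p of 5.44e-23. *Tmed5*, which covers 7.51% of its exonic length from the opposite strand, had a log2 fold change of 0.13 (adjusted p = 0.522). Copies covered 9.41% of the exonic bases of *Mtf2*.

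*Phf19* (ENSMUSG00000026873.3, chromosome 2, 34749277 to 34769546, minus strand), another Polycomb-like gene, was the least abundant member. It had 305 and 311 normalized counts in WT and 256 in each library of the KO-labelled group. The groups did not overlap, but the log2 fold change of -0.27 ± 0.21 (SE) did not pass (DESeq2 adjusted p = 0.358), and its 95% interval of -0.67 to 0.13 leaves room for a fall or a small rise. *Phf1*, a related gene from the list of associates below, was also scarce, at 195 and 176 normalized counts in WT against 204 and 178 in KO-labelled cells.

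Both PRC2.2 subunits rose, at smaller fold changes than *Mtf2*. *Jarid2* (ENSMUSG00000038518.8, chromosome 13, 44824843 to 45017012, plus strand) encodes a Jumonji-family protein that binds the complex and has no demethylase activity of its own. It had 31660 and 29602 normalized counts in WT against 37880 and 39382 in KO-labelled cells. The log2 fold change was 0.33 ± 0.07 (SE, DESeq2 adjusted p = 5.07e-06). *Aebp2* (ENSMUSG00000030232.10, chromosome 6, 140570970 to 140626993, plus strand) encodes a zinc finger protein that stabilizes the complex. It had 6531 and 6197 normalized counts in WT against 7289 and 7669 in KO-labelled cells, a log2 fold change of 0.23 ± 0.07 (SE, DESeq2 adjusted p = 0.0079). Copies covered 4.12% of the exonic bases of *Jarid2* and 4.71% of those of *Aebp2*. The call of *Aebp2* was lost without WT replicate 2 (0.166) and without KO-labelled replicate 2 (0.196), and with chromosome medians removed (0.0687).

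The summed level of *Mtf2*, *Phf19* and *Phf1* per kilobase was 0.674 and 0.738 times that of *Jarid2* and *Aebp2* in the WT libraries, and 1.05 and 0.880 times in the KO-labelled libraries. This ratio of named PRC2.1 to PRC2.2 transcripts was higher in both KO-labelled libraries, by 0.45 on the log2 scale with a within-group SD of 0.14. It is not a ratio of complexes, since JARID2 and AEBP2 belong to the same form and are summed. It also leaves out the PRC2.1 partner *Epop*, at 3366 to 4096 per kilobase, which did not pass (log2 fold change 0.11, DESeq2 adjusted p = 0.386). *Mtf2* supplied nearly all of the PRC2.1 sum, since *Phf19* was at 50.8 to 61.8 and *Phf1* at 72.6 to 83.9 normalized counts per kilobase.

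**Figure D2:**
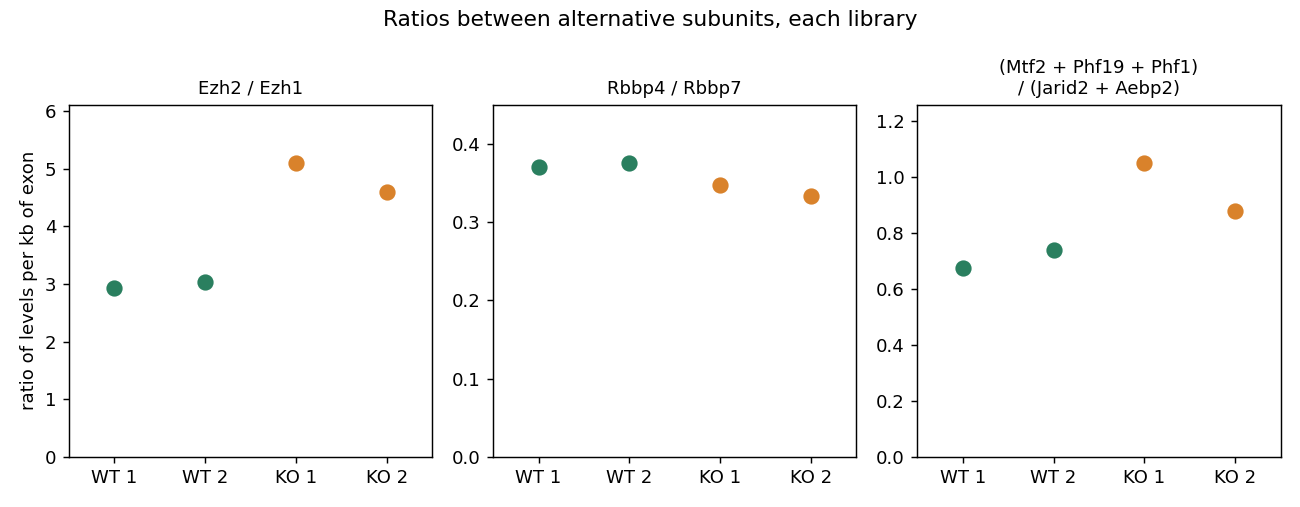
Ratio of levels per kilobase of exon (linear axes from 0) between alternative subunits in each of the 4 libraries, green for WT and orange for KO-labelled. *Ezh2* over *Ezh1* lies at 2.93 and 3.03 in WT and at 4.59 and 5.09 in KO-labelled cells. *Rbbp4* over *Rbbp7* lies at 0.371 and 0.375 in WT and at 0.334 and 0.348 in KO-labelled cells.

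The fold changes of the 10 members were not equally firm. *Ezh2*, *Mtf2* and *Jarid2*, that is 3 of the 10, passed in each of the 10 refits made with other settings or with 1 library left out. Chromosomes differed in their medians, at 0.16 for chromosome 11 with *Ezh1* and *Suz12*, 0.09 for chromosome 7 with *Eed*, 0.06 for chromosomes 5 and 6 with *Mtf2*, *Ezh2* and *Aebp2*, and -0.06 for the X chromosome with *Rbbp7*. With these medians removed, *Ezh2*, *Mtf2* and *Jarid2* had log2 fold changes of 0.89, 0.74 and 0.35, and *Suz12* had 0.48 with an adjusted p of 0.0584.

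**Figure D3:**
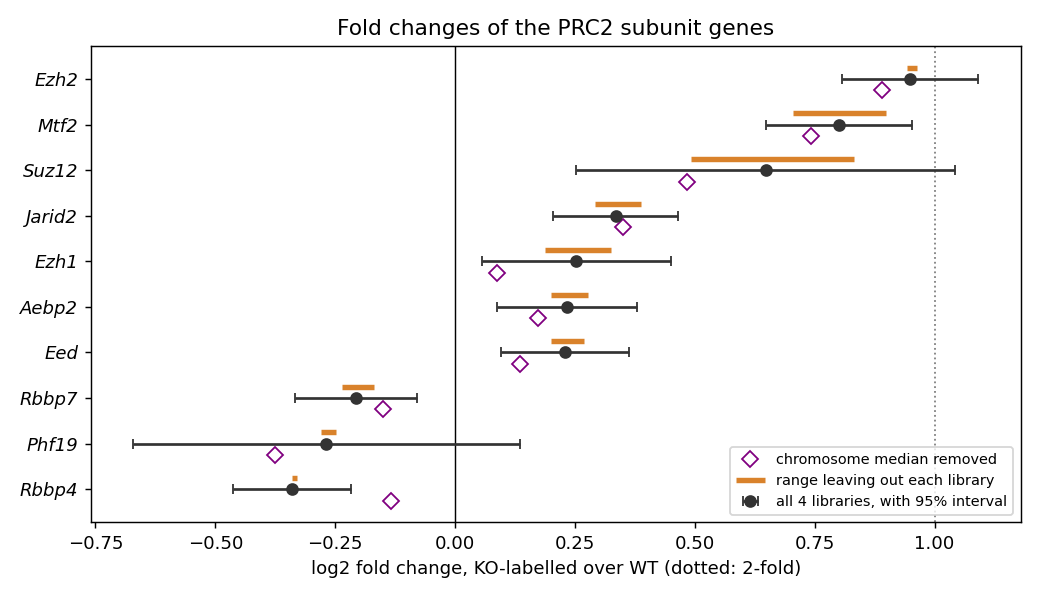
Log2 fold change of each member (x axis, KO-labelled over WT), with black points and bars for the DESeq2 estimate and its 95% interval, orange lines for the range over fits that leave out 1 library, and open diamonds for the fit with chromosome medians removed. *Ezh2* (0.95) and *Mtf2* (0.80) stand farthest right of 0, the interval of *Phf19* crosses 0, and the diamond of *Rbbp4* lies at -0.13 instead of -0.34.

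Levels were next compared between subunits, on the scale of normalized counts per kilobase of exon. In WT the order of group means ran from *Rbbp7* (7352), *Eed* (5692), *Jarid2* (3153), *Rbbp4* (2744) and *Mtf2* (2597) to *Suz12* (1420), *Aebp2* (727), *Ezh2* (703), *Ezh1* (236) and *Phf19* (61.2). The ranges of neighbours did not overlap, but those of *Aebp2* and *Ezh2* met at 708, so these 2 were not told apart. *Ezh2* was at 2.82% to 2.88% of the summed level of the 10 members in WT, and at 4.74% to 4.80% in the KO-labelled libraries, where its mean was 1357 against 855 for *Aebp2*. *Mtf2* moved from the fifth to the third place, at 4523, and the ranges of *Suz12* and *Rbbp4* overlapped, at 2054 to 2396 and 2165 to 2172. The order depends on the length used. With the longest transcript, an alternative chosen after the values were seen, *Ezh2* was already above *Aebp2* in WT (1643 against 1071), its WT range lay within that of *Suz12*, and its share was 4.98% to 5.09% in WT and 8.42% to 8.50% in KO-labelled cells. *Rbbp4* then stood above *Jarid2* in WT, and *Rbbp7* above *Eed* in both groups. The ratio of *Ezh2* to *Ezh1* was then 3.88 and 4.001 in WT and 6.73 and 6.07 in KO-labelled cells. Per kilobase of union exon, the level summed over all 10 members was 24595 to 24775 in WT and 28135 to 28824 in the KO-labelled libraries.

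**Figure D4:**
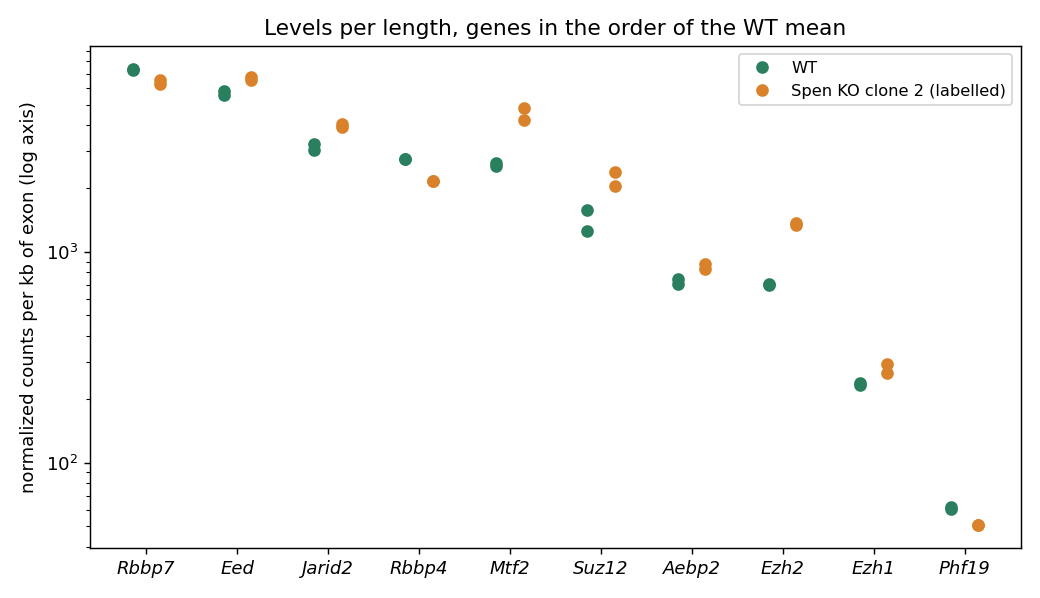
Normalized counts per kilobase of exon (log axis) of the 10 members in each library, in the order of the WT means, green for WT and orange for KO-labelled. Levels span from 50.8 for *Phf19* to 7391 for *Rbbp7*, and the orange points of *Ezh2* lie above its green points, at means of 1357 and 703.

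Other proteins that bind PRC2 or act on the same histone residue were taken from a list of 10 genes. Of these, 5 were higher and 0 lower at a DESeq2 adjusted p under 0.05, with a median log2 fold change of 0.18, beside the 16.4% and 15.8% of all genes tested. Without KO-labelled replicate 1 only 1 was higher, and with chromosome medians removed 3 were. An unadjusted p under 0.05 was found for 6 (28% of all genes with a p), and edgeR gave 5 higher and 1 lower, beside 19.5% and 20.8% of all genes it tested, the latter being *Ezhip* (*AU022751*), which encodes an inhibitor of the enzyme. *Ezhip* was scarce, at 47.7 and 32.7 normalized counts in WT and 13.9 and 18.8 in KO-labelled cells (edgeR adjusted p = 0.0289, DESeq2 adjusted p = 0.117), and a pseudogene entry of the same name covers 83.1% of its exonic bases. *Epop* (*E130012A19Rik*), a PRC2.1 partner abundant in mESCs, overlapped between groups, at 7822 and 8776 against 9520 and 8376. *Lcor*, whose locus also encodes the PRC2.1 partner PALI1, rose from 627 and 609 to 1034 and 811, a log2 fold change of 0.58 ± 0.15 (SE, DESeq2 adjusted p = 0.000902). It lies on chromosome 19, whose median was 0.38, and the call was lost with that removed (adjusted p = 0.388), as it was without KO-labelled replicate 1 (0.174). *Lcorl*, a relative of *Lcor*, was at 0.03 ± 0.19 and did not pass.

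*Skida1* (*2810030E01Rik*), a gene for a protein found with PRC2, rose by 0.51 ± 0.19 (SE, DESeq2 adjusted p = 0.0244), a call lost in each fit that left out 1 library (0.077 to 0.292). The H3K27 demethylases *Kdm6a* and *Kdm6b*, which remove the mark, rose by 0.26 and 0.49 on the log2 scale (DESeq2 adjusted p of 0.00391 and 0.00703). *Kdm6a* had 5856 and 6250 normalized counts in WT against 7416 and 7040 in KO-labelled cells. Of the acetyltransferases that modify the same lysine, *Ep300* rose by 0.33 ± 0.09 (SE), from 5204 and 6145 to 7114 and 7203 normalized counts. *Crebbp* did not pass (0.08 ± 0.09), but it lies on chromosome 16, whose median was -0.24, and it was at 0.31 with that removed (adjusted p = 0.00195). The calls of the enzymes also depended on single libraries. Without WT replicate 1 the adjusted p was 0.131 for *Kdm6a* and 0.1001 for *Ep300*, without WT replicate 2 it was 0.164 for *Kdm6b*, and without KO-labelled replicate 1 it was 0.125 for *Kdm6a* and 0.275 for *Kdm6b*. With chromosome medians removed *Kdm6b* and *Skida1* were at 0.32 and 0.40 and no longer passed (DESeq2 adjusted p of 0.109 and 0.101).

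Genes that PRC2 is known to occupy in mESCs were read from a list of 46 developmental regulators and cell cycle inhibitors. The list was written from general knowledge and holds several genes whose fall in these libraries was already known, so its direction is not independent evidence. Of the 46, 34 had an adjusted p, and 16 of those were lower and 0 higher at a DESeq2 adjusted p under 0.05. The shares of all genes tested were 15.8% and 16.4%. An adjusted p needs enough counts over all libraries together, which a gene can reach through the group where it is high. Values over the 34 are therefore a description. The median log2 fold change of the 34 was -1.17, an unadjusted p under 0.05 was found for 18 of the 46 (28% of all genes with a p), and edgeR gave 19 lower and 1 higher (20.8% and 19.5% of the genes it tested), the homeobox gene *Lhx5* (edgeR adjusted p = 0.0255, DESeq2 adjusted p = 0.12). At the 2-fold threshold 11 were lower (3.15% of all genes tested), and 12 to 13 were lower at an adjusted p under 0.05 when 1 library was left out. Most are near silent, and 30 had a mean normalized count under 50, where precision is poor.

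The largest changes were in the oligodendrocyte and motor neuron regulators *Olig1* and *Olig2*, the homeobox gene *Meis1* and the mesoderm regulator *T*. *Olig2* (chromosome 16, 91225795 to 91228922) had 2186 and 2528 normalized counts in WT and 19.2 and 26.6 in KO-labelled cells, a log2 fold change of -6.68 ± 0.23 (SE). Its neighbour *Olig1* went from 1427 and 1419 to 7.0 and 7.8 (log2 fold change -7.58), and *T* from 378 and 425 to 27.9 and 32.1 (-3.74). *Meis1* had 198 and 214 in WT and 15.7 and 14.1 in the other group. *Meis1* shares 12.1% of its exonic length with a gene on the opposite strand. The cell cycle inhibitors *Cdkn2a* and *Cdkn2b*, adjacent genes of chromosome 4 that are named here after their values were seen, also fell. *Cdkn2a* had 526 and 586 normalized counts in WT against 103 and 138 in KO-labelled cells, with a log2 fold change of -2.21 ± 0.21 (SE) and a DESeq2 adjusted p of 3.01e-23. *Cdkn2b* was lower by a similar size, at -2.27 ± 0.51. H3K27me3 and binding of the complex were not measured in these libraries.

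**Figure D5:**
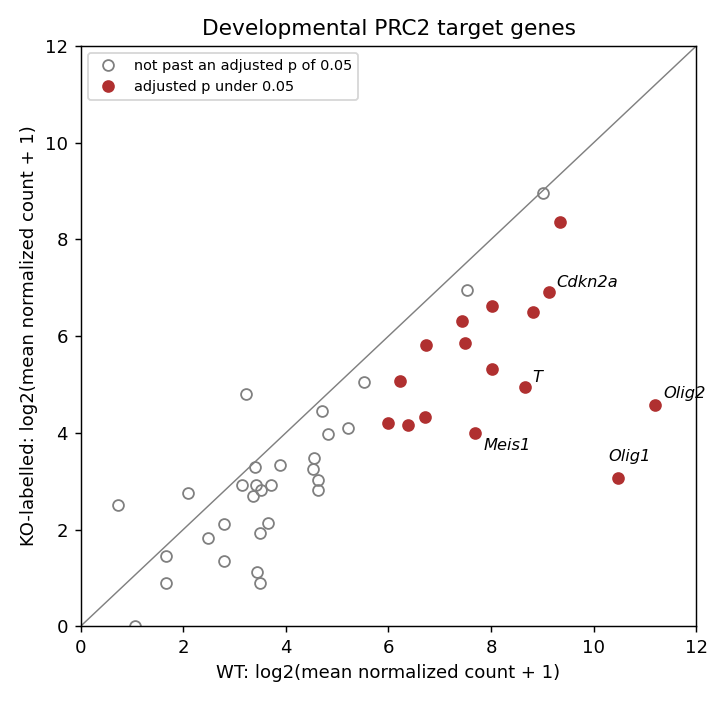
Log2 of the mean normalized count plus 1 for the 46 developmental PRC2 target genes, WT on the x axis and KO-labelled on the y axis, with red points for an adjusted p under 0.05, open points for the others and a line of equality. All 16 red points lie below the line, with *Olig1* and *Olig2* farthest from it.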

How the data were processed

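RNA was sequenced from 2 WT and 2 KO-labelled libraries with ribosomal RNA depletion and a stranded kit. The authors mapped paired 75-base reads to mm9 with STAR and used featureCounts with the GENCODE vM1 annotation. The deposited table holds raw counts. Versions, the strand setting and the handling of multiply mapped reads were not given in the sources used here. Replicates and groups came from the sample labels, and 0 columns were without a sample.

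Counts were tested with DESeq2 1.42.0 in R 4.3.3 (design of group, its own size factors and filtering, and Benjamini-Hochberg correction across genes). edgeR 4.0.16 (quasi-likelihood, at least 10 counts in at least 2 libraries), TMM and upper-quartile factors, a low-count filter, the replicate number as a block, removal of chromosome medians and leaving out each library were alternatives. The fits were tested on simulated counts. Between genes, normalized counts per kilobase of union exon were compared. Ratios between 2 genes so formed equal those of TPM. Between groups TPM served only as an alternative scaling, since the share that short genes took of it differed between them. Copies were searched with blastn 2.17.0+. Correlations of log2 normalized counts were 0.995 within WT, 0.996 within the KO-labelled group and 0.964 to 0.966 between them, over 13306 genes, which are not independent replicates.

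The members and lists were chosen with earlier results of these data known. Named were *Spen*, all members and associates, and up to 4 target genes a direction with the largest absolute log2 fold change among those past an adjusted p of 0.05 with a mean of 50 or more. Outside this rule, *Cdkn2a*, *Cdkn2b* and *Lhx5*, 3 more fibroblast markers and the genes that overlap members were named after their values were seen. Marker lists were summed, with up to 3 examples each, and 1 of the 6 trophectoderm symbols was not analysed here. Promoters came from RefSeq (GRCm38.p6), which matched all 10 members.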

Additional observations from a re-analysis of the deposited data

How the results depend on the processing

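TMM and upper-quartile factors, edgeR and a low-count filter left 7 members higher and 2 lower. The labels state no pairing of libraries of the same number, and a correlation of same-numbered deviations of -0.018 across genes cannot exclude one. With the replicate block the calls of *Ezh1*, *Eed*, *Suz12*, *Aebp2* and *Rbbp7* were lost. That left 3 members higher and 1 lower, and 3 associates higher. With chromosome medians removed these numbers were 3, 0 and 3. Leaving out each library gave 4 to 6 members higher, 1 to 1 lower, and 1 to 4 associates higher. These fits keep 1 library in a group, which is assumed to vary like the others, and test fewer samples. The lowest number of associates came without KO-labelled replicate 1. Of 100 refitted fold changes of members, 76 kept their outcome (passing or not) and direction, 24 lost the call and 0 reversed. The 76 include the 10 refits of *Phf19*, which had no call to keep and passed in 0 of them. On normalized counts the groups overlap in no member, so kept signs add little. Without the fold minimum 4 members had an adjusted p under 0.001, and a 2-fold minimum with an adjusted p under 0.05 called 0. edgeR gave 1 target gene higher and 1 associate lower, against 0 in DESeq2. Between 12 and 19 target genes were lower in every setting. Precision was low where counts were few: *Phf19*, *Phf1* and *Ezhip* had SEs of 0.21, 0.25 and 0.65. On the TPM scale, not centred, *Rbbp7* turned from lower to higher (log2 difference 0.07), and *Ezh2* and *Mtf2* passed 2-fold (1.23 and 1.08). *Phf19* was then at 0.008, and its groups overlapped (2.068 and 2.108 in WT, 2.156 and 2.045 in KO-labelled cells). The cause of lost calls was not tested.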
